A study of Mus musculus with 12 samples.

Results

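The genes described here are 10 enzymes and transporters of glycolysis, the pathway that breaks glucose down to pyruvate and lactate in the cytosol. They were chosen by symbol from the 32416 gene symbols of the expression table: Slc2a1, Hk2, Pfkp, Aldoa, Tpi1, Pgk1, Eno1, Pkm, Ldha and Slc16a3. All 10 were found, and all 10 passed the filter on low values in every comparison. Glucose enters the cell through the transporter encoded by Slc2a1, is phosphorylated by hexokinase and phosphofructokinase, and is split and oxidised to pyruvate. Pyruvate is then reduced to lactate, which leaves the cell through the transporter encoded by Slc16a3. Many tumours use glucose heavily in this way, and the transcription factor HIF-1, which is stabilised when oxygen is low, is a known activator of most of these genes.

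The 12 libraries are bulk polyA RNA from tumours formed under the skin of C57BL/6 mice by B16, a mouse melanoma line. In the B16mhgp100 model, 4 tumours over-expressed Aoah, the gene of the lipid-cleaving enzyme acyloxyacyl hydrolase, and 4 carried the empty Vector. All 8 received anti-PD1, an antibody that blocks a checkpoint receptor of T cells, with the first dose on day 10. In the B16F10 model, 2 Aoah and 2 Vector tumours received anti-PD1 together with anti-CTLA4, an antibody to another checkpoint receptor, from day 6. Each dose was 200 µg, given 2 times per week for 4 doses, and tumours were collected 1 day after the final dose. Every tumour was treated with antibody, so no untreated level is known, and the effects of model, antibodies and first dose day cannot be told apart. The labels do not say whether the cells are 1 clone or a pool, or whether each tumour came from its own mouse, and p-values cover only the spread among the tumours at hand.

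Levels are TPM, a scale of transcript abundance that corrects for gene length and library total but keeps no read depth. Aoah itself was at 13.96 to 22.5 TPM in the libraries labelled B16mhgp100 Aoah 1 to 3 but at 3.91 TPM in the library labelled Aoah 4, which lies within the 0.89 to 7.58 TPM of the B16mhgp100 Vector tumours. In B16F10 it was at 21.8 and 23.7 TPM in Aoah tumours, against 0.75 and 1.49 TPM in Vector tumours. Melanocyte markers were detected in all libraries, and their summed level was lowest in the library labelled Aoah 4. There 7 melanocyte markers summed to 7802 TPM, 8 skeletal muscle markers to 4843 TPM and 6 keratinocyte markers to 4554 TPM. In the B16mhgp100 Vector tumours these sums ran from 17327 to 28466, from 34.4 to 732 and from 4.11 to 55.6 TPM. None of these markers was at 0 throughout either group. Because of its Aoah level and marker sums, results in B16mhgp100 are given with and without the library labelled Aoah 4. The 10 glycolysis genes made up 0.799% of all TPM in that library and 1.52% to 2.12% in the other 11. Over genes averaging at least 1 TPM in the libraries labelled Aoah 1 to 3, its median ratio to that average was 0.51. The melanocyte markers did not move as one in that library. Their ratio was 1.21 for Mlana and 0.83 for Dct, against 0.13 to 0.24 for Pmel, Tyr, Tyrp1, Sox10 and Mitf. Of the 10 glycolysis genes, all but Hk2 were lowest there among B16mhgp100 Aoah tumours. Leaving that library out thus raises the fold changes of those glycolysis genes. In bulk RNA, fewer cells of a type and less RNA per cell cannot be told apart.

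The promoters of 4 of the genes are shown because these genes span the entry of glucose, the lower pathway and the export of lactate, and because in B16F10 the fold changes of Hk2 and Slc16a3 lay above 0 and those of Pgk1 and Ldha below. Each is the 250 bases before the first annotated start, from RefSeq on build GRCm38.p6, which is not the build of the deposited values (mm39). The windows are chr6:82774455-82774704 on the minus strand for Hk2, chr11:120948817-120949066 on the plus strand for Slc16a3, chrX:106186850-106187099 on the plus strand for Pgk1 and chr7:46845554-46845803 on the plus strand for Ldha. Capitals mark ACGTG on either strand (CACGT where it lies on the opposite strand), the core of the hypoxia response element that HIF-1 binds. CACGTG is the E-box, which holds ACGTG on both strands.
Hk2: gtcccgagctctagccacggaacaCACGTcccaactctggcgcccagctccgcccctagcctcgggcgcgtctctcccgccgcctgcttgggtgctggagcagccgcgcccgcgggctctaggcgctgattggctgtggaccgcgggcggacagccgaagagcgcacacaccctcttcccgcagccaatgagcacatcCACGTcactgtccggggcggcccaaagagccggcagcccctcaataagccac
Slc16a3: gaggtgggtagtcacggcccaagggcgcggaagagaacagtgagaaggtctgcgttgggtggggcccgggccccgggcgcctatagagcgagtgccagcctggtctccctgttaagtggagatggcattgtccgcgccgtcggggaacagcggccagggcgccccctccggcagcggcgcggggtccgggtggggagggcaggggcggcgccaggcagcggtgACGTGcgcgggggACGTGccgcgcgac
Pgk1: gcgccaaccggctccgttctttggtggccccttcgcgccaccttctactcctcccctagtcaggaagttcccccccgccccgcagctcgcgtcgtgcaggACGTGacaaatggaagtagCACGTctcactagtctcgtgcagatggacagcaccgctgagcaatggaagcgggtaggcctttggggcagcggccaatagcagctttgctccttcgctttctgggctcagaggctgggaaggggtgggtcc
Ldha: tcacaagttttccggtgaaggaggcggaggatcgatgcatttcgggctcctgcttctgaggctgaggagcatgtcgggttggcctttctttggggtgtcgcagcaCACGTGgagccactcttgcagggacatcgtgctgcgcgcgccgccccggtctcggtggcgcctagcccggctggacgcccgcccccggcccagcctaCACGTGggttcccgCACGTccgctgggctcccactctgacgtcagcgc
Over the full RefSeq windows of 300 bases, which add 50 bases after the start, all 10 genes had at least 1 window, 16 in all. ACGTG was present in a window of 7 of the 10 genes (Slc2a1, Hk2, Aldoa, Pgk1, Pkm, Ldha and Slc16a3), against 21.8% of all 27025 genes with such windows. GCGTG, another form of the core, was present for 4 of 10 (Slc2a1, Pfkp, Eno1 and Ldha), against 35.2% of all genes. Either form was present for 9 of 10, all but Tpi1, against 46.7%. The 10 genes have more windows each (16 for 10 genes) than all genes have (32851 for 27025), which raises such a count. In their first windows alone 7 of 10 held either form, and Aldoa and Pkm held ACGTG in later windows only. The E-box was present for Ldha alone among the 10, against 8.09% of all genes. Letters in a window are a description and not evidence that a factor bound there.

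Levels fell into a high and a low tier. Aldoa (aldolase A) is left aside here, for the reason given below the order. Eno1 (enolase), Tpi1 (triosephosphate isomerase), Pkm (pyruvate kinase), Ldha (lactate dehydrogenase A) and Pgk1 (phosphoglycerate kinase) averaged 2068 to 4226 TPM in every group. Slc2a1, Hk2 (hexokinase 2), Pfkp (platelet-type phosphofructokinase) and Slc16a3 averaged 63.8 to 413 TPM. In all 4 groups the ranges of the upper and lower tiers did not overlap. In B16mhgp100 Aoah tumours the order was Eno1, Tpi1, Pkm, Ldha and Pgk1, and each pair of neighbours overlapped. The same order held in B16mhgp100 Vector tumours, again with overlap between all neighbours. In B16F10 the order differed: Tpi1 led in Aoah tumours, followed by Pkm, Eno1, Ldha and Pgk1, and Eno1 led in Vector tumours, followed by Pkm, Ldha, Tpi1 and Pgk1. In both B16F10 groups Slc16a3 was first of the lower tier, whereas in B16mhgp100 Vector tumours it was last of the 9.

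The level of Aldoa cannot be set against the other 9. In the authors' deposited table for B16mhgp100, its main identifier ENSMUSG00000030695 had a mean normalised count of 55417, yet the TPM row averaged 117 TPM in Aoah and 109.8 TPM in Vector libraries of that model. The ratio of count to TPM was 488, above that of 99.97% of 3142 well-counted genes, and 12.5 to 48.1 for the other 9. The symbol belongs to 2 identifiers, and which of them the TPM row holds is not given in the sources used here. The log2 fold change of Aldoa was 0.01 by TPM and 0.22 in the authors' deposited table in B16mhgp100, and 0.73 and 0.87 in B16F10. Reads of Eno1, Pgk1, Ldha and Aldoa can also be shared with near-identical copies.

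**Figure D1:**
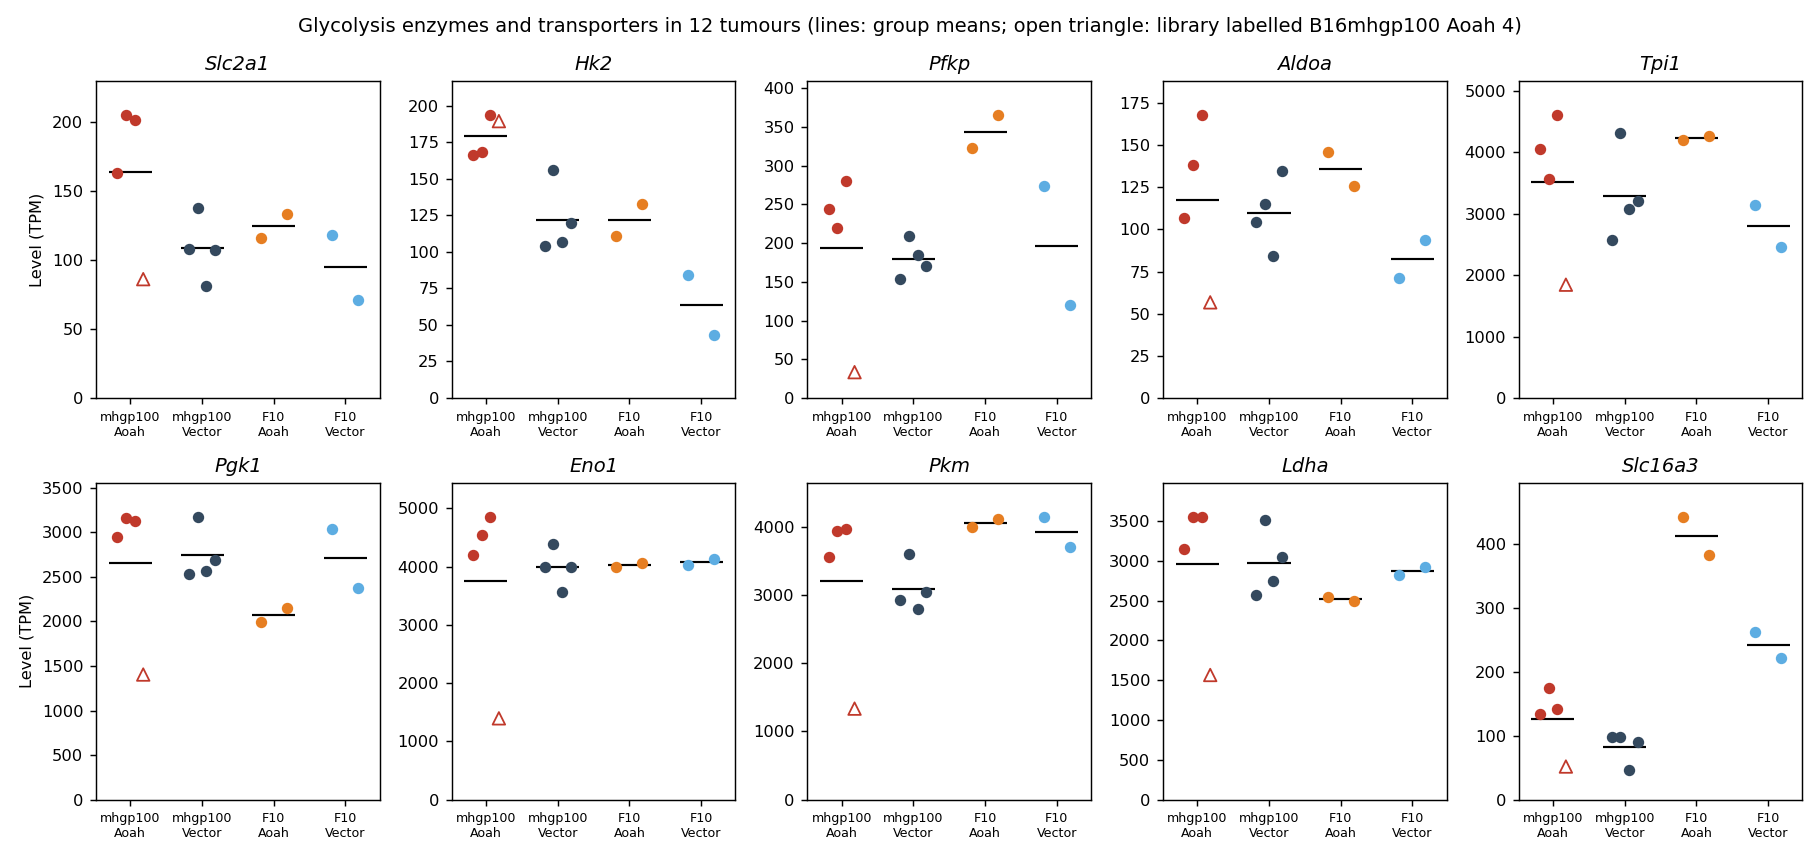
Level (TPM, linear axis from 0) of each gene in every tumour, by model and arm; points are tumours, lines are group means and the open triangle is the library labelled B16mhgp100 Aoah 4. That library was the lowest B16mhgp100 Aoah tumour for 9 of the 10 genes, the exception being Hk2 at 189 TPM, and Slc16a3 was higher in all B16F10 tumours than in all B16mhgp100 tumours.

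In the B16mhgp100 model, no glycolysis gene passed the threshold, an adjusted p of 0.05 by limma with Benjamini-Hochberg adjustment over 14228 genes. The background was 0% of all genes, with 2.46% at an unadjusted p under 0.05. Of the 10, 5 had a fold change above 0 and 5 below, with a median of -0.03 on the log2(TPM + 1) scale, against a median of -0.20 and 30% above 0 over all genes tested. With median-of-ratios scaling, which moved the median of all genes to -0.02, 8 of 10 were above 0 and their median was 0.18. In the authors' deposited table, all 10 were above 0, against 54.3% of all genes, with a median of 0.19, and none passed, against 0.0146% of its genes. The direction of Pgk1, Pkm and Ldha thus turned with the scaling, and none of these values passed a test.

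Among the 10 genes, the highest log2 fold changes in B16mhgp100 were those of Hk2, Slc2a1 and Slc16a3, and without the library labelled Aoah 4 those of Slc16a3, Slc2a1 and Hk2. Hk2 traps glucose in the cell by phosphorylating it. It was at 166, 168, 194 and 189 TPM in Aoah tumours, against 104, 156, 107 and 120.0 TPM in Vector tumours. All 4 Aoah tumours lay above all 4 Vector tumours, the library labelled Aoah 4 included, and Hk2 was the one gene of the 10 whose groups did not overlap (0.731% of all genes were higher and 5.15% lower without overlap). Its log2 fold change was 0.57 (SE 0.18), with an adjusted p of 0.694 by limma and an unadjusted p of 0.0104. In the authors' deposited table it was 0.82, with an adjusted p of 0.53.

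Slc2a1, which encodes the main basal glucose transporter, was at 163, 205, 202 and 86.0 TPM in Aoah tumours, against 108, 138, 81.1 and 107 TPM in Vector tumours. The first 3 Aoah libraries lay above every Vector tumour and the library labelled Aoah 4 lay below 3 of them. Its log2 fold change was 0.54 (SE 0.30; limma adjusted p = 0.694), and 0.82 (SE 0.17; limma adjusted p = 0.514) without that library.

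Slc16a3, which encodes the lactate exporter MCT4, was at 134, 175, 141 and 52.0 TPM in Aoah tumours, against 98.3, 98.6, 46.5 and 89.6 TPM in Vector tumours. Again 3 Aoah libraries exceeded all Vector tumours and the library labelled Aoah 4 fell among them. The log2 fold change was 0.52 (SE 0.40; limma adjusted p = 0.694), and 0.90 (SE 0.27; limma adjusted p = 0.56) without that library.

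Pfkp catalyses the committed step of glycolysis. It was at 244, 219, 280.4 and 33.4 TPM in Aoah tumours, against 153, 209.6, 184 and 170.4 TPM in Vector tumours. The library labelled Aoah 4 was 0.135 of the mean of the other 3 Aoah libraries for Pfkp, a ratio lower than that of all but 1.76% of genes. The log2 fold change was -0.25 with all libraries and 0.47 without that library, so 1 library decided its direction.

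The enzymes of the lower pathway differed less. Without the library labelled Aoah 4, the log2 fold changes were 0.17 for Pgk1, 0.19 for Eno1, 0.21 for Ldha, 0.31 for Pkm, 0.32 for Aldoa and 0.32 for Tpi1, and none passed. With it they ran from -0.24 for Eno1 to 0.04 for Tpi1. Without that library, all 10 genes were above 0, against 44.7% of 14520 genes, with a median of 0.32 against -0.02 for all genes. Of the 10, 5 had an unadjusted p under 0.05 (Slc2a1, Hk2, Pfkp, Pkm and Slc16a3), against 8.15% of all genes, and none an adjusted p under 0.05, against 0.0138% of all genes. The groups did not overlap for 4 of the 10, all higher (Slc2a1, Hk2, Pfkp and Slc16a3), against 2.95% of all genes. That library was the lowest B16mhgp100 Aoah tumour for all of the 10 but Hk2, so leaving it out raises such counts by itself. The summed muscle, keratinocyte and melanocyte markers moved with that library, as given above, and their part in these values was not tested.

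**Figure D2:**
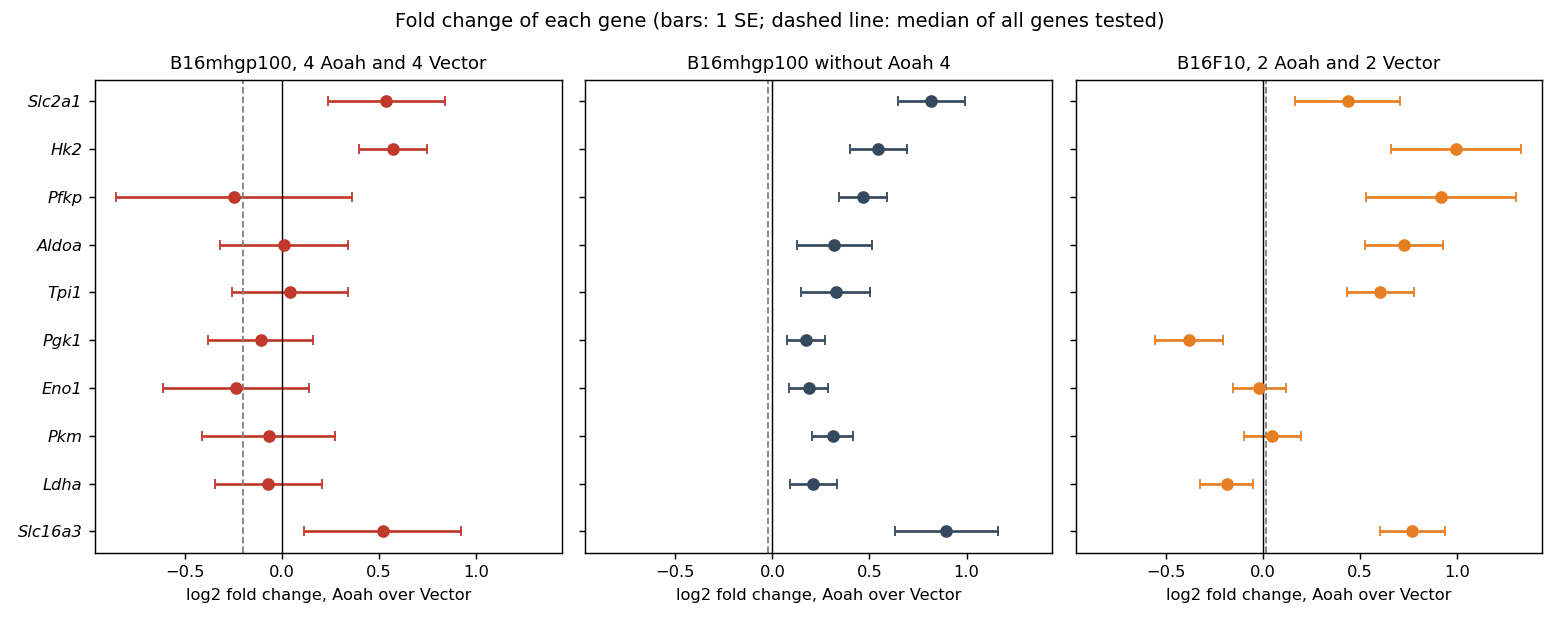
Log2 fold change of each gene, Aoah over Vector, on the log2(TPM + 1) scale in B16mhgp100 with all 8 libraries, in B16mhgp100 without the library labelled Aoah 4, and in B16F10; bars are 1 SE and dashed lines the median of all genes tested. In the middle panel all 10 genes lie above 0, from 0.17 to 0.90, and in B16F10 Pgk1 and Ldha lie below 0.

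In the B16F10 model, 7 of the 10 glycolysis genes were above 0 and none passed limma's adjusted threshold, against 0.344% of 14533 genes. The median log2 fold change was 0.52, against 0.02 for all genes, of which 51.6% were above 0. The same 7 of 10 were above 0 with median-of-ratios scaling, with a median of 0.51. Leaving out Vector 2 took the median to 0.20, and leaving out Vector 1 took it to 0.66. An unadjusted p under 0.05 was reached by 4 of the 10 (Hk2, Aldoa, Tpi1 and Slc16a3), against 18.2% of all genes. In the authors' deposited table, 4 of the 10 passed an adjusted p of 0.05, all higher in Aoah tumours (Hk2, Aldoa, Tpi1 and Slc16a3), against 4.65% of its genes in this direction, 8.53% in either direction and 48% above 0. With 2 tumours per arm, an exact permutation test cannot go below p = 0.333.

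Slc16a3 had the smallest unadjusted p of the 10 by limma. It was at 443 and 383 TPM in Aoah tumours, against 263 and 221 TPM in Vector tumours, with no overlap, as for 28% of all genes in this direction. The log2 fold change was 0.77 (SE 0.17; limma adjusted p = 0.121). In the authors' deposited table it was 0.76, with an adjusted p of 0.00642.

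Hk2 was at 111 and 133 TPM in Aoah tumours, against 84.4 and 43.1 TPM in Vector tumours. The arms did not overlap, but the Vector tumours differed from each other by more than the gap between the arms. The log2 fold change was 0.99 (SE 0.34; limma adjusted p = 0.217). The value in the authors' deposited table was 0.95, with an adjusted p of 0.0107.

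Tpi1 and Aldoa act side by side where the sugar is split. Tpi1, which interconverts the fragments of the split sugar, was at 4199 and 4254 TPM in Aoah tumours, against 3146 and 2453 TPM in Vector tumours. Aldoa, the enzyme that cleaves the sugar, was at 146 and 126 TPM in Aoah tumours, against 70.9 and 93.5 TPM in Vector tumours. Neither gene overlapped between arms, and their log2 fold changes were 0.61 for Tpi1 (limma adjusted p = 0.172) and 0.73 for Aldoa (limma adjusted p = 0.165). In the authors' deposited table the adjusted p was 0.0279 for Tpi1 and 0.000328 for Aldoa.

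Pfkp was at 322 and 365 TPM in Aoah tumours, against 273 and 120.0 TPM in Vector tumours, a log2 fold change of 0.92 (limma adjusted p = 0.293). Pgk1, the first enzyme of the pathway to yield ATP, went the other way, at 1990.2 and 2145 TPM in Aoah tumours, against 3041 and 2375 TPM in Vector tumours. Ldha, which makes lactate from pyruvate, was at 2546 and 2491 TPM in Aoah tumours, against 2820.0 and 2915 TPM in Vector tumours. The log2 fold changes of -0.38 for Pgk1 (limma adjusted p = 0.327) and -0.19 for Ldha (limma adjusted p = 0.513) did not pass. Neither gene overlapped between arms, and 22.6% of all genes were lower without overlap.

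Over the 10 genes, 5 were higher without overlap and 2 lower, against 28% and 22.6% of all genes. Slc2a1, Eno1 and Pkm overlapped, with log2 fold changes of 0.44, -0.02 and 0.05. Markers of other cells differed between these arms. Summed T cell markers were at 70.8 to 87.1 TPM in Aoah tumours, against 6.76 to 16.7 TPM in Vector tumours. Summed macrophage markers were at 1092 to 1158 TPM in Aoah tumours, against 645 to 705 TPM in Vector tumours. The macrophage markers did not all move with their sum: of 8, 6 were higher without overlap, 1 was lower without overlap and 1 overlapped. Melanocyte markers were at 28245 to 29292 TPM in Aoah tumours, against 18545 to 21778 TPM in Vector tumours. Of the 7 melanocyte markers, 4 were higher without overlap and 3 overlapped, and 2 of the 7 had a fold change below 0. Fibroblast markers were at 126 to 197 TPM in Aoah tumours, against 335 to 429 TPM in Vector tumours. Endothelial markers were at 22.2 to 28.5 TPM in Aoah tumours, against 54.2 to 77.0 TPM in Vector tumours. None of the T cell, macrophage, melanocyte, fibroblast or endothelial markers was at 0 throughout an arm, and the part of these cells in the glycolysis values was not tested.

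The effect of Aoah was compared between the models by an interaction term over the 12 libraries. None of the 10 passed, against 0.0302% of 16556 genes. Differences (B16mhgp100 effect minus B16F10 effect) ran from -1.16 for Pfkp to 0.27 for Pgk1, with a median of -0.24, against -0.16 for all genes, and 3 of 10 above 0. Without the library labelled Aoah 4 they ran from -0.45 for Pfkp to 0.55 for Pgk1, with a median of 0.16 and 6 of 10 above 0. Pgk1 and Ldha were lower in Aoah tumours of B16F10 and, without the library labelled Aoah 4, higher in those of B16mhgp100. Without that library the difference for Pgk1 was 0.55 (SE 0.19), with an unadjusted p of 0.0138 and an adjusted p of 0.247 by limma. That for Ldha was 0.40 (SE 0.18; limma adjusted p = 0.387). In that fit none of the 10 passed, against 0.277% of all genes.

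Between the models, the lactate exporter Slc16a3 was the 1 gene of the 10 that passed, and it did so among Aoah tumours. There it averaged 126 ± 52.3 TPM in B16mhgp100 (SD, n = 4) and 413 ± 42.3 TPM in B16F10 (SD, n = 2). The log2 fold change was -1.84 (SE 0.45), with an adjusted p of 0.0486 by limma. The background was 3.7% of all genes. Ranges did not overlap for 1 gene that was higher in B16mhgp100 (Hk2) and 3 that were lower (Pfkp, Pkm and Slc16a3), against 11.9% and 18.9% of all genes. The fold change stayed negative under every setting run, at -1.46 to -2.04 with libraries left out. The call was kept with a pseudocount of 5 (adjusted p = 0.0417), with median-of-ratios scaling (adjusted p = 0.0123) and with array weights (adjusted p = 0.00138), all by limma. It was lost with a pseudocount of 0.1 (adjusted p = 0.0517) and without the filter (adjusted p = 0.0854), both by limma. A replicate block that tied same-numbered tumours of both models also lost it (limma adjusted p = 0.2). So did leaving out any 1 library other than that labelled Aoah 4 (limma adjusted p of 0.0514 to 0.383). Without the library labelled Aoah 4, the log2 fold change was -1.46 with an adjusted p of 0.00762 by limma.

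Among Vector tumours, Slc16a3 averaged 83.2 ± 24.9 TPM in B16mhgp100 (SD, n = 4) and 242 ± 29.7 TPM in B16F10 (SD, n = 2). The groups did not overlap for Slc16a3, and its log2 fold change was -1.58 (SE 0.45; limma adjusted p = 0.128). Hk2 ran in the opposite direction, at 122 ± 23.9 TPM in B16mhgp100 (SD, n = 4) and 63.8 ± 29.2 TPM in B16F10 (SD, n = 2), a log2 fold change of 0.98 (SE 0.26; limma adjusted p = 0.11). None of the 10 passed here, against 1.88% of all genes. Ranges did not overlap for 1 gene that was higher (Hk2) and 2 that were lower (Pkm and Slc16a3), against 20.4% and 12.7% of all genes. Without the library labelled Aoah 4, which enters this contrast through the shared spread alone, both passed, with a limma adjusted p of 0.00586 for Slc16a3 and 0.0285 for Hk2, against 13% of all genes. Slc16a3 passed with median-of-ratios scaling too (log2 fold change -1.72; limma adjusted p = 0.0191). Hk2 also passed without B16F10 Vector 1 (log2 fold change 1.45; limma adjusted p = 0.0298). Outside the 10, Slc2a4, the insulin-responsive glucose transporter, differed more, at 20.1 to 49.3 TPM in B16mhgp100 Aoah tumours, against 2.79 and 3.67 TPM in B16F10 Aoah tumours (log2 fold change 3.04; limma adjusted p = 0.00491). In Vector tumours it was at 23.4 to 66.6 TPM in B16mhgp100, against 1.93 and 2.28 TPM in B16F10 (log2 fold change 3.84; limma adjusted p = 0.00176).

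Without that library, Pgk1 and Ldha also passed among Aoah tumours, with log2 fold changes of 0.57 (limma adjusted p = 0.0159) and 0.44 (limma adjusted p = 0.0428), against 21.2% of all genes. Pgk1 was at 2951 to 3164 TPM in the other 3 B16mhgp100 Aoah tumours, against 1990.2 and 2145 TPM in the B16F10 Aoah tumours. Ldha was at 3146 to 3552 TPM in the same 3, against 2491 and 2546 TPM in B16F10. With all libraries both ranges overlapped. Beside these contrasts, summed macrophage markers were at 245 to 3361 TPM in B16mhgp100 Aoah tumours, against 1092 to 1158 TPM in B16F10 Aoah tumours, and at 241 to 1456 TPM in B16mhgp100 Vector tumours, against 645 to 705 TPM in B16F10 Vector tumours. Melanocyte markers were at 7802 to 23178 TPM in B16mhgp100 Aoah tumours, against 28245 to 29292 TPM in B16F10 Aoah tumours. Without overlap, 5 of the 7 were lower in B16mhgp100 and 1 was higher, against 18.9% and 11.9% of all genes. None of the 7 passed by limma. In Vector tumours their sum was at 17327 to 28466 TPM in B16mhgp100, against 18545 to 21778 TPM in B16F10, and all 7 overlapped. T cell markers were at 17.4 to 36.0 TPM in B16mhgp100 Aoah tumours, against 70.8 to 87.1 TPM in B16F10 Aoah tumours, and 3 of 8 passed as lower by limma. Endothelial markers were at 54.8 to 98.1 TPM in B16mhgp100 Aoah tumours, against 22.2 to 28.5 TPM in B16F10 Aoah tumours, and none of 6 passed. In the fit without the library labelled Aoah 4, 5 T cell markers passed as lower and 4 endothelial markers as higher. Their part in the contrasts was not tested.

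Most steps of glycolysis can be carried out by more than 1 isoenzyme, and the share of each gene in its family does not move with library scaling. In B16mhgp100, Slc16a3 made up 80.9%, 81.8%, 79.8% and 76.0% of the summed TPM of Slc16a3 and Slc16a1 in Aoah tumours, against 74.4%, 74.8%, 54.2% and 69.7% in Vector tumours. Slc16a1 encodes MCT1, a transporter that carries lactate in either direction. All 4 Aoah tumours lay above all 4 Vector tumours, with means of 79.6% ± 2.54 and 68.3% ± 9.67 (SD, n = 4 each). The exact 2-sided permutation test gave p = 0.0286, the smallest that 4 against 4 allows, and 0.2 after adjustment over the 7 shares tested. The difference of 11.3 percentage points was 6.65 without Vector 3. In B16F10 the share was 96.9% and 95.8% in Aoah tumours, against 90.4% and 93.3% in Vector tumours.

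Hk2 made up 44.6%, 43.7%, 44.3% and 85.2% of the summed TPM of Hk1, Hk2 and Hk3 in B16mhgp100 Aoah tumours, against 34.4%, 44.4%, 37.9% and 40.5% in Vector tumours. The library labelled Aoah 4 stood far above the rest, with Hk1, the widely expressed hexokinase, at 24.5 TPM there, against 187 to 235 TPM in the other 3. The exact permutation p was 0.0857, or 0.3 adjusted over the 7 shares. In B16F10 the share was 34.5% and 37.5% in Aoah tumours, against 30.1% and 31.8% in Vector tumours.

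None of the 7 shares passed after adjustment. Eno1 held 97.8% to 98.9% of enolase TPM in every library but the one labelled Aoah 4, where it held 83.8%. In that library Eno3, the muscle enolase, was at 262 TPM and Pgam2, the muscle phosphoglycerate mutase, at 271 TPM, against 15.3 to 24.7 TPM and 2.95 to 8.41 TPM in the other 3 B16mhgp100 Aoah tumours. Pkm held over 99% of pyruvate kinase TPM in all 12 libraries and was not tested. The Aldoa share carries the limit on its level given above.

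**Figure D3:**
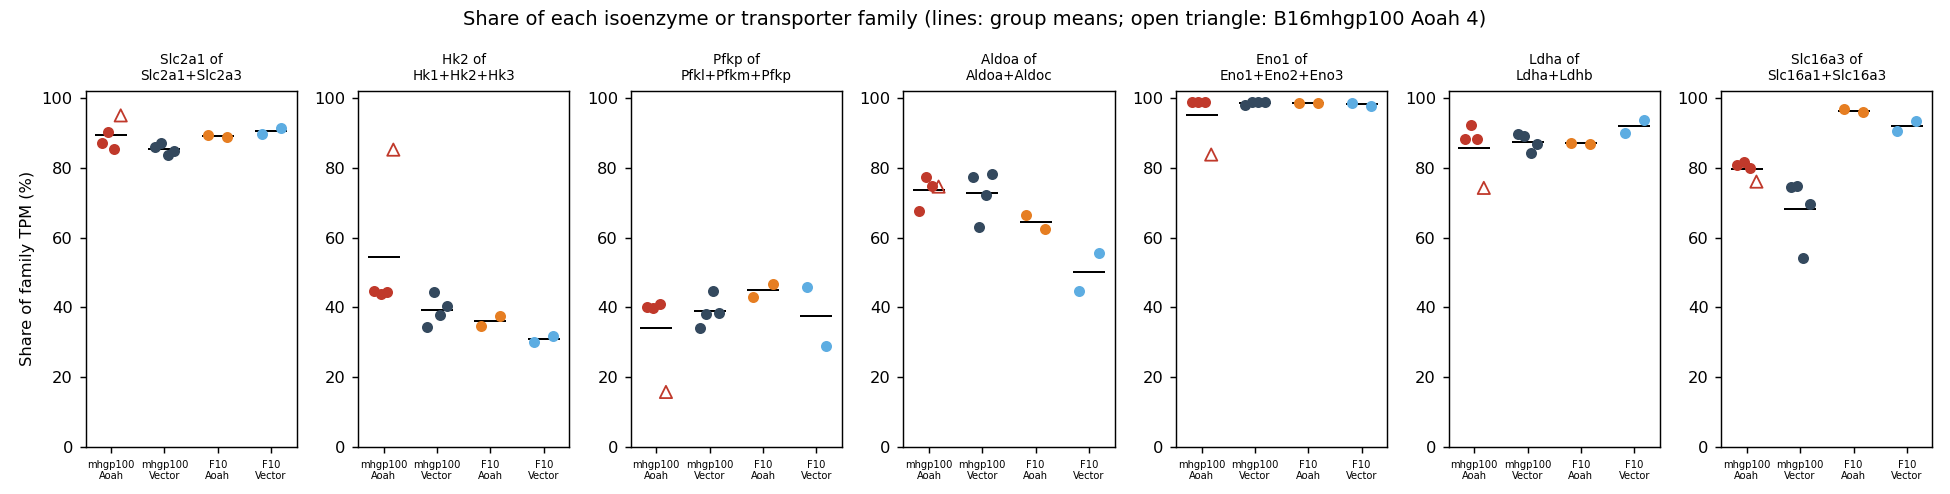
Share (% of summed family TPM, axis from 0) of each gene in its isoenzyme or transporter family, by model and arm; points are tumours, lines are group means and the open triangle is the library labelled B16mhgp100 Aoah 4. For Slc16a3 all B16mhgp100 Aoah tumours, at 76.0% to 81.8%, lie above all Vector tumours, at 54.2% to 74.8%, and the triangle stands apart for Hk2 (85.2%) and Pfkp (15.7%).

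The rest of the pathway was followed in lists of related genes, none of whose members passed by limma in either within-model comparison. By contrast, Hk3 and Pdk2 passed as higher in Aoah tumours and Epas1 as lower in the authors' deposited table for B16F10, where no other gene of these 4 lists did. As background for the 4 lists, 30% of all genes were above 0 in B16mhgp100, with a median of -0.20. Without the library labelled Aoah 4 it was 44.7% with a median of -0.02, and in B16F10 51.6% with a median of 0.02. Of 25 other glycolytic isoenzymes, steps and transporters, 22 were kept in B16mhgp100. There 10 were above 0, with a median of -0.04, and without the library labelled Aoah 4 it was 13 of 23 with a median of 0.11. Those with the smallest p were Slc16a7, a further lactate and pyruvate transporter, at -1.14 log2, Slc16a8 at -0.55, Gpi1, which converts glucose phosphate to fructose phosphate, at 0.39, and Bpgm at -0.35. With that library left out, Slc16a7 was at -0.64, Slc16a8 at -0.36, Gpi1 at 0.53 and Bpgm at -0.17. Median-of-ratios scaling in B16mhgp100 put 13 of 22 above 0 with a median of 0.15, against 47.2% and -0.02 over all genes. In B16F10, 14 of 22 were above 0 with a median of 0.34. Hk3, a hexokinase of myeloid cells, was at 28.9 and 30.4 TPM in Aoah tumours, against 5.06 and 7.22 TPM in Vector tumours, a log2 fold change of 2.12 (limma adjusted p = 0.0571). Its log2 fold change in the authors' deposited table was 2.27 (adjusted p = 8.77e-15). It was followed by Gpi1 at 0.63, Pfkl at 0.49 and Gapdh at 0.53 log2.

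The list of 13 regulators holds the Pfkfb enzymes and Tigar, which set the level of fructose 2,6-bisphosphate, the fructose bisphosphatases Fbp1 and Fbp2, transcription factors of the pathway, and Vhl, which marks HIF proteins for degradation. In B16mhgp100 3 of 12 kept were above 0, with a median of -0.38, and without the library labelled Aoah 4 it was 6 of 12 with a median of 0.02. Epas1, which encodes HIF-2 alpha, was at -0.55 log2, Tigar at -0.46, Pfkfb1 at -0.40 and Hif1a at -0.35. With the library labelled Aoah 4 left out, Epas1 was at -0.25, Tigar at -0.12, Pfkfb1 at -0.63 and Hif1a at -0.03 log2. Median-of-ratios scaling in B16mhgp100 put 4 of 12 above 0 with a median of -0.19, against 47.2% and -0.02 over all genes. In B16F10 9 of 12 were above 0 with a median of 0.07, and Epas1 was at -1.02 (by the authors' deposited table -1.17, adjusted p 0.00628), Tigar at 0.62, Pfkfb2 at 0.51 and Myc at -0.49.

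For the entry of pyruvate into mitochondria, 3 of 12 genes were above 0 in B16mhgp100, with a median of -0.24. Over all genes it was 30% with a median of -0.20, so this list lay near the background. The same number of the list was above 0 without the library labelled Aoah 4, with a median of -0.10. The lowest p went to subunits of the pyruvate dehydrogenase complex: Dld at -0.42 log2, Pdha1 at -0.40, Pdhx at -0.30 and Pdhb at -0.28. Leaving out the library labelled Aoah 4 gave -0.20 for Dld, -0.15 for Pdha1, -0.14 for Pdhx and -0.11 for Pdhb. Median-of-ratios scaling in B16mhgp100 put 5 of 12 above 0 with a median of -0.05, against 47.2% and -0.02 over all genes. In B16F10 7 of 11 were above 0 with a median of 0.11. Pdk2, a kinase that switches the complex off, was at 10.4 and 13.6 TPM in Aoah tumours, against 3.01 and 3.16 TPM in Vector tumours, a log2 fold change of 1.66 (limma adjusted p = 0.0786). The authors' deposited table gave 1.94 (adjusted p = 7.34e-05). Mpc2 was at -0.29, Dld at -0.37 and Mpc1 at 0.18 log2.

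The 16 genes of the list of known hypoxia targets outside glycolysis had the highest median of the 4 lists in B16mhgp100. There 14 of 16 were above 0 with a median of 0.38, and without the library labelled Aoah 4 all 16 were, with a median of 0.81. In that fit 15 of 16 had an unadjusted p under 0.05, against 8.15% of all genes, and 0 passed after adjustment by limma. With all libraries, Higd1a, a mitochondrial protein, was at 1.05 log2 (unadjusted p = 0.0143), Ankrd37 at 0.94, the oxygen sensor Egln3 at 0.85 and the peptide hormone Adm at 0.59. The fit without the library labelled Aoah 4 gave 0.69 for Higd1a, 0.97 for Ankrd37, 1.07 for Egln3 and 0.92 for Adm. Median-of-ratios scaling in B16mhgp100 put 15 of 16 above 0 with a median of 0.58, against 47.2% and -0.02 over all genes. In B16F10 12 of 16 were above 0 with a median of 0.27, and Ndrg1 was at 0.43, P4ha1 at 0.35, Bnip3l at -0.52 and Adm at 0.58 log2.

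**Figure D4:**
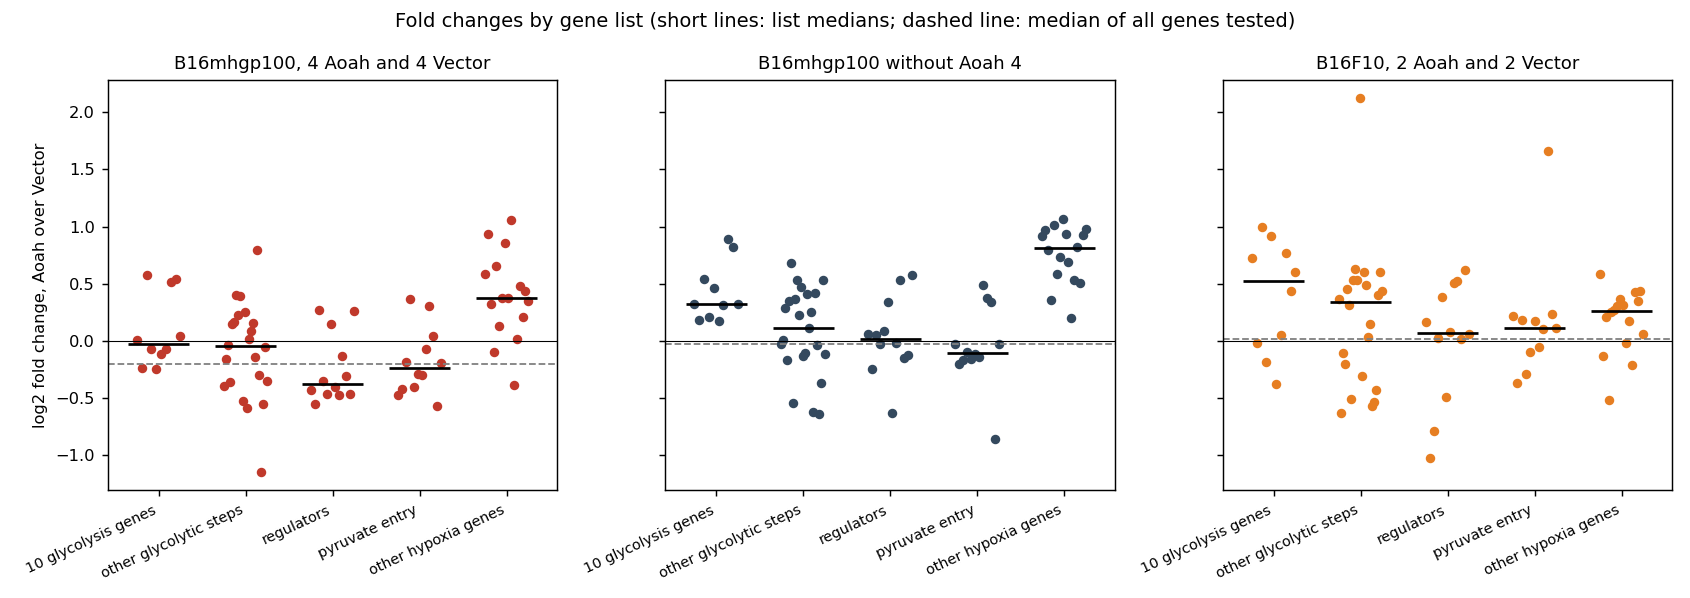
Log2 fold changes (Aoah over Vector, log2(TPM + 1) scale) of the 10 glycolysis genes and of 4 lists of related genes in B16mhgp100 with all libraries, in B16mhgp100 without the library labelled Aoah 4, and in B16F10; points are genes, short lines list medians and dashed lines the median of all genes tested. In the middle panel the hypoxia list has a median of 0.81 and the glycolysis genes one of 0.32; in B16F10 their order is the other way, at 0.27 and 0.52.

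The mean z-score of the 10 genes over the 12 libraries ran from -1.93 in the library labelled Aoah 4 to 0.91 in B16mhgp100 Aoah 3. Among Vector tumours the highest was B16mhgp100 Vector 2 at 0.44. Of genes outside the lists, the most alike in pattern over 12 libraries were Kif21b (Pearson r = 0.964, Spearman rho = 0.867), Bcar1 (0.961 and 0.846), Ube2o (0.958 and 0.909), Zfp12 (0.955 and 0.909) and Ak4 (0.954 and 0.930). Without the library labelled Aoah 4 they were Trp53bp1 (r = 0.947, rho = 0.955), Clybl (0.9004 and 0.864), Ier3 (0.899 and 0.973), Hilpda (0.892 and 0.918) and Kif21b (0.889 and 0.818). Only Kif21b stood in both sets of 5. These are descriptions over libraries that share group and scaling, picked as the highest among all genes, and carry no test.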

How the data were processed

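Expression was measured by bulk polyA RNA-seq of 12 tumours, in groups taken from the sample titles. Per the labels' protocols, the RNA carried ERCC spikes, the kit was NEBNext Ultra II, and paired reads came from a NovaSeq. The authors deposited log2 values, here turned back to TPM by undoing log2(TPM + 1). The resulting levels lay on a grid of 0.01 TPM for all but 41 gene symbols. RSEM, DESeq2 and mm39 are named by the submitters' processing notes, while versions, annotation and strand setting are not given in the sources at hand. Because TPM holds no depth, no counting interval is given. For each model the authors also deposited a table with the mean normalised count (a signal), the log2 fold change, a test score, p-values and adjusted p-values.

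The log2(TPM + 1) values were tested with limma 3.58.1 in R 4.3.3 with an intensity trend, 2-sided. Per comparison, a gene had to reach 1 TPM in a number of libraries no lower than the size of the smaller group. p-values were Benjamini-Hochberg adjusted over all kept genes, with a threshold of 0.05. This scale understates the change of low genes. Each model was fitted alone, and contrasts between models used all 12 libraries. Shares were compared by exact permutation with scipy 1.17.1. The fits were tested on simulated data. The glycolysis genes and the other lists were chosen with earlier results of these data known. All 10 glycolysis genes are named, and of each other list up to 4 genes with the smallest p. Genes named beyond that rule were chosen after their values were seen. Of these, Hk1, Eno3 and Slc16a1 are family partners, and Pgam2 and Slc2a4 come from the list of other glycolytic isoenzymes, steps and transporters. All 7 melanocyte markers are named. Alternatives were other pseudocounts (0.1 and 5), no filter, median-of-ratios scaling, array weights, a replicate block, and each library left out.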

Additional observations from a re-analysis of the deposited data

Results flagged for a closer look

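In the groups of 4 libraries, a lone highest or lowest library was looked for in 36 sets of values (levels and family shares), and 9 were found by Dixon's 95% limit. Chance gives about 1 in 20 for a single set, but these sets share libraries and TPM values, so the 9 are not independent. Of these, 8 were the library labelled B16mhgp100 Aoah 4. It was lowest of the B16mhgp100 Aoah tumours for Pfkp at 33.4 TPM, Pgk1 at 1404 TPM, Eno1 at 1397 TPM, Pkm at 1335 TPM and Ldha at 1565 TPM. Its Hk2 share of hexokinase TPM was the highest at 85.2%, its Pfkp share of phosphofructokinase TPM the lowest at 15.7%, and its Eno1 share of enolase TPM the lowest at 83.8%. Many genes were low there: the median ratio to the mean of the libraries labelled Aoah 1 to 3 was 0.51. This ratio was 0.46 for Pgk1 and Ldha, 0.35 for Pkm and 0.31 for Eno1. Of all genes, 36.3%, 36.5%, 21.6% and 16.1% had a lower ratio than Pgk1, Ldha, Pkm and Eno1, and 1.76% than Pfkp. The ninth was Slc16a3 in B16mhgp100 Vector 3, lowest of its group at 46.5 TPM.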

How the results depend on the processing

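Of 800 repeats of the fold changes of the glycolysis genes under other settings, 746 kept their direction and their side of the threshold, and the cause of the others was not tested. In B16mhgp100, log2 fold changes turned positive with median-of-ratios scaling for Pgk1 (0.10), Pkm (0.14) and Ldha (0.14). With array weights they did so for Pfkp (0.47), Pgk1 (0.17), Eno1 (0.17), Pkm (0.30) and Ldha (0.17), and the median of the 10 was 0.33. With each library left out in turn, that median ran from -0.19 (without Aoah 3) to 0.32 (without the library labelled Aoah 4). The ranges for single genes were Pfkp -0.54 to 0.47, Aldoa -0.20 to 0.32, Tpi1 -0.11 to 0.32, Pgk1 -0.22 to 0.17, Eno1 -0.41 to 0.19, Pkm -0.21 to 0.31 and Ldha -0.18 to 0.21. In B16F10 the median ran from 0.20 (without Vector 2) to 0.66 (without Vector 1), Eno1 from -0.035 to 6.46e-05 and Pkm from -0.032 to 0.13. Among shares in B16mhgp100 the difference in percentage points ran from 6.65 to 13.5 for Slc16a3, -6.96 to 1.49 for Pfkp, -2.35 to 2.85 for Aldoa, -4.91 to 0.10 for Eno1 and -3.82 to 2.20 for Ldha.

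For the difference between models, Pkm was at 0.10 with median-of-ratios scaling, and array weights gave 0.19 for Eno1, 0.25 for Pkm and 0.17 for Slc16a3. With libraries left out the ranges were Pfkp -1.75 to -0.45, Slc2a1 -0.26 to 0.46, Hk2 -0.90 to 0.053, Eno1 -0.40 to 0.20, Pkm -0.26 to 0.26 and Slc16a3 -0.51 to 0.12. Among Aoah tumours, 0 of the 10 genes passed with a pseudocount of 0.1, without the filter or with the replicate block. With array weights 5 passed, and Eno1 was at 0.12. With libraries left out 0 to 3 passed (Eno1 -0.43 to 0.17), the 3 without the library labelled Aoah 4, against 21.2% of all genes. The number of all genes past the threshold also moved between settings, as given below as a range, so these counts cannot be read as particular to the 10. Among Vector tumours, median-of-ratios scaling gave 1 call, that of Slc16a3 (log2 fold change -1.72; limma adjusted p = 0.0191). Pgk1 at -0.11 and Ldha at -0.094 turned direction there without passing, and array weights put Pgk1 at -0.000165. With libraries left out, 0 to 2 passed, the 2 without the library labelled Aoah 4, against 13% of all genes. The ranges were Slc2a1 -0.15 to 0.58, Pfkp -0.62 to 0.57, Pgk1 -0.16 to 0.20, Eno1 -0.08 to 0.015 and Ldha -0.044 to 0.11.

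The labels do not say whether replicate numbers pair the tumours, and the values here cannot settle it. Deviations from the group means of same-numbered tumours correlated at -0.239, -0.212, 0.068 and -0.074 in B16mhgp100 and at -0.084 in B16F10, and no tumour correlated best with its own number. With 2 tumours per arm in B16F10, the value for the other number is the same with its sign turned (0.084). A replicate block called 2 of the 10 in B16F10 (Hk2 and Pfkp, both higher in Aoah tumours), where it also called more of all genes, as given below. The block left 0 called in B16mhgp100. In contrasts over all 12 libraries it also tied same-numbered tumours of both models, which is not a pairing of Aoah with Vector tumours. There it put Pfkp at 0.29 and Eno1 at 0.19 among Vector tumours.

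The number of genes past the threshold moved more. In B16mhgp100 it was 0, and 1 with a pseudocount of 0.1, 5 with array weights and 0 to 2 with libraries left out. In B16F10 it was 50 of 14533 genes (0.344%). Under the alternatives it was 32 with a pseudocount of 0.1, 0 without the filter, 131 with median-of-ratios scaling and 115 with array weights. The block gave 765, and leaving out any library gave 0. For the difference it was 5, and 2 to 46 under the alternatives. For B16mhgp100 over B16F10, with 16556 genes in the main fit, it was 612 among Aoah tumours (76 to 6160 under the alternatives) and 312 among Vector tumours (82 to 2113). Depth is unknown for TPM, so what it limits could not be stated.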
